A study of Sus scrofa with 8 samples.

Results

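Interferon receptors, the kinase JAK1 and the ligand interferon gamma were followed in the whole blood of sows at the time when a pig pregnancy is recognised. The genes were IFNAR1, IFNGR1, IL10RB, JAK1 and IFNG, which gave 5 of the 2389 genes that could be named on the array, and 13 of its 43603 probes. A probe was a member when the RefSeq transcript it was designed on carried one of these pig symbols, and every such probe was used. Blood of 4 pregnant sows was compared with blood of 4 non-pregnant sows, all of the fifth parity and all bled 14 days after insemination, with 1 single-colour Agilent array for each sow. The design describes 3 half-sib pairs and 1 unrelated pair of sows. The arrays lay on 2 slides, each with 2 arrays of either group.

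Interferons signal through paired receptor chains on the cell surface. Type I interferons bind a receptor of IFNAR1 and IFNAR2, interferon gamma binds IFNGR1 paired with IFNGR2, and IL10RB is the shared chain of the receptors for type III interferons, IL-10 and IL-22. JAK1 is bound to a chain in each of these receptors and phosphorylates STAT proteins after the ligand has bound. The elongating pig conceptus is known to secrete interferon gamma and interferon delta, and IFNG in blood is made mainly by T cells and NK cells.

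IFNAR1 (transcript NM_213772) had 2 probes, IFNGR1 (NM_001177907) 4, JAK1 (NM_214114) 5, and IL10RB (NM_213771) and IFNG (NM_213948) 1 each. The probes of a gene are numbered here from the brightest to the dimmest. In the Sscrofa11.1 gene table, IFNAR2, IL10RB, IFNAR1 and IFNGR2 follow each other directly on 1 chromosome, whereas IFNGR1, JAK1 and IFNG lie on other chromosomes. All 13 probes were well above background on all 4 pregnant and all 4 non-pregnant arrays, and none was saturated or marked as an outlier on any array (0 spots). Levels are given as log2 of the processed spot signal minus log2 of the 75th percentile of that array, so a level of 0 is a spot as bright as that percentile.

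The arrays were similar in quality, with one that stood apart. The 75th percentile signal ran from 142 to 296, and 61.7% to 69.2% of probes were well above background. Pregnant replicate 2 had the lowest of these percentiles, against 175 or more on the other arrays. Correlations between arrays ran from 0.870 to 0.984, and the lowest was 0.946 without that array. Markers of the blood cell types were present: 8 of 8 measured T cell markers, 9 of 9 of cytotoxic lymphocytes and NK cells, 9 of 9 of monocytes and macrophages, 8 of 8 of platelets, 2 of 2 of B cells and 8 of 9 of neutrophils were well above background on all 8 arrays. The 9 erythroid symbols listed had no matched probe (0 measured). In whole blood, fewer cells of a type and less RNA per cell cannot be told apart.

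The members were chosen with the difference between pregnant and non-pregnant sows on these arrays already known, so that difference is described for them and not tested. Across all 26476 probes kept, limma called 0 at an adjusted p under 0.05 (smallest adjusted p = 0.524). Before adjustment 609 probes had a p under 0.05. When changes of known size were put into the values, this fit recovered 4.48% of those of 2-fold and 35.8% of those of 4-fold. Changes of 2-fold or less would thus mostly be missed. None of the member probes was called (0 of 13, where 0% of all probes were called). Of the 13 member probes, 11 had a positive log2 fold change and 2 a negative one, with a median of 0.23, whereas the median over all probes was -0.040 and 43.9% of them were positive. Probes of a gene share its RNA and are not separate observations.

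**Figure D1:**
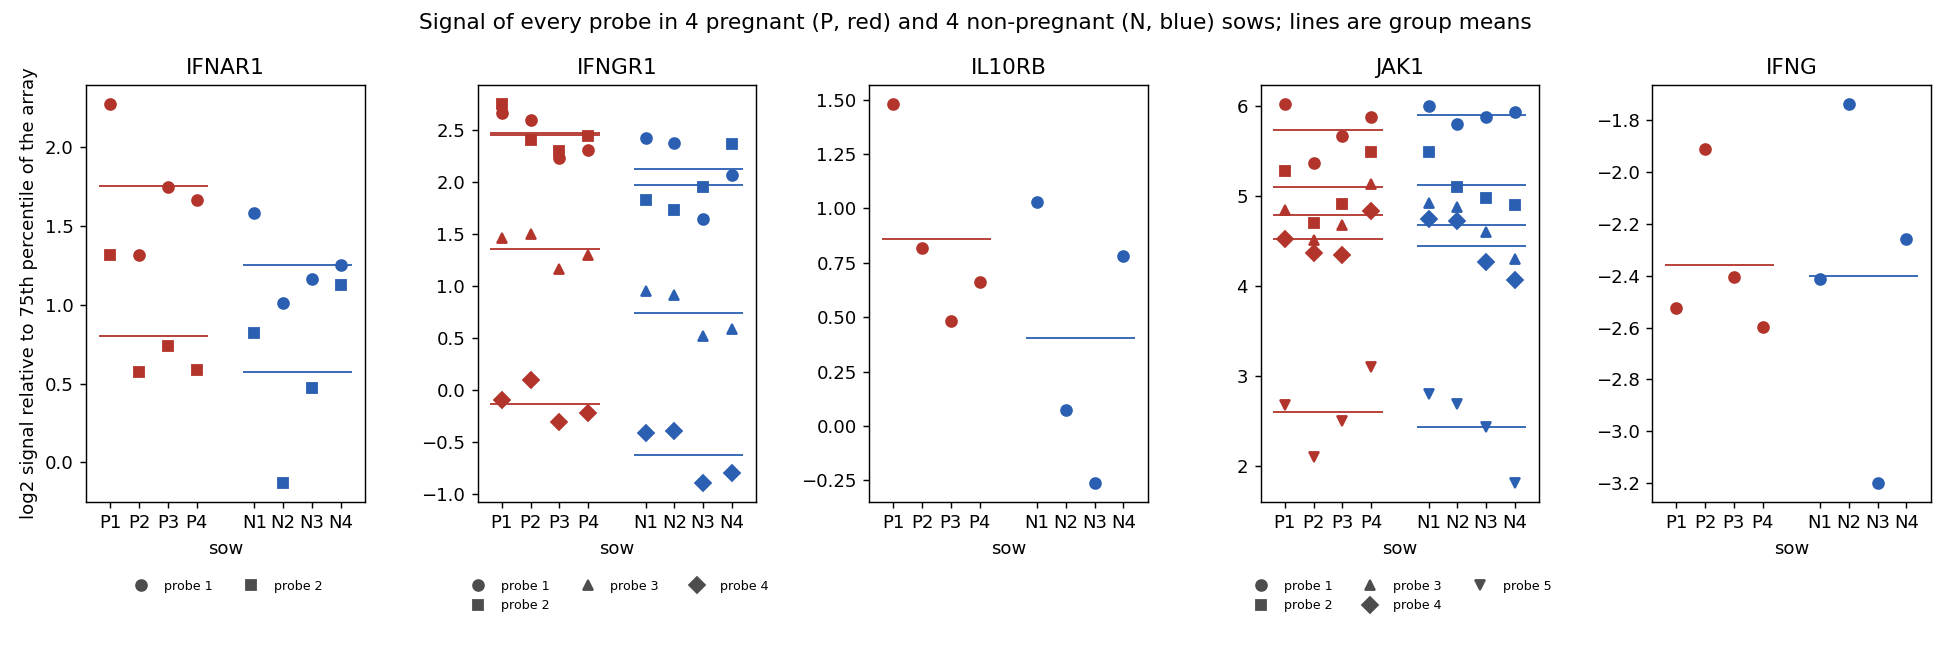
Level of each probe (y axis, log2 signal relative to the 75th percentile of the array) in each sow (x axis), with 1 panel for each gene; P1 to P4 in red are the pregnant sows, N1 to N4 in blue the non-pregnant sows, symbols are probes and horizontal lines group means. IFNGR1 probes 3 and 4 lie higher in all 4 pregnant sows than in all 4 non-pregnant sows, and the points of JAK1 and IFNG overlap.

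IFNGR1, the chain that binds interferon gamma, had 4 probes. All 4 averaged higher in pregnant sows, with log2 fold changes of 0.32 to 0.62, and the mean over the 4 probes was 0.48 (1.40-fold). With normexp background correction probes 1 to 4 gave 0.78, 0.99, 0.60 and 0.12, and with array weights probe 1 gave 0.13. Probe 3 stood at 1.46, 1.50, 1.17 and 1.30 in pregnant replicates 1 to 4, against 0.95, 0.91, 0.52 and 0.58 in non-pregnant replicates 1 to 4. Every pregnant sow lay above every non-pregnant sow at this probe. The group means were 1.36 ± 0.15 in pregnant and 0.74 ± 0.22 in non-pregnant sows (SD, n = 4 each), a log2 fold change of 0.62 with a limma SE of 0.23.

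Probe 4 of IFNGR1 parted the groups as well. It stood at -0.099, 0.095, -0.30 and -0.22 in the pregnant sows, against -0.41, -0.39, -0.89 and -0.79 in the non-pregnant sows. The lowest pregnant value, that of replicate 3, lay just above the highest non-pregnant value, that of replicate 2. Groups that did not overlap were thus found at 2 of 13 member probes. They were found at 1.58% of all probes in either direction and at 0.925% with the pregnant group higher, and nothing is read from this since the contrast was used to choose the genes.

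The brighter IFNGR1 probes overlapped between groups, and each through different sows. Probe 1 stood at 2.66, 2.60, 2.23 and 2.31 in pregnant sows, against 2.42, 2.38, 1.64 and 2.07 in non-pregnant sows. Here non-pregnant replicates 1 and 2 reached into the pregnant range and non-pregnant replicate 3 was lowest of all. The log2 fold change of probe 1 was 0.16 without non-pregnant replicate 3. Probe 2 stood at 2.75, 2.40, 2.30 and 2.44 in pregnant sows, against 1.82, 1.73, 1.95 and 2.37 in non-pregnant sows. At probe 2 non-pregnant replicate 4, and not replicates 1 and 2, reached into the pregnant range.

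The 4 IFNGR1 probes therefore fell into a set of 3 and a single probe when the sows are followed one by one. Over the 8 arrays probes 3 and 4 correlated at r = 0.98 (Spearman rho = 0.98), probes 1 and 3 at 0.84 (rho = 0.79) and probes 1 and 4 at 0.89 (rho = 0.76). Probe 2 gave r with probes 1, 3 and 4 between 0.38 and 0.59 (rho between 0.33 and 0.67). On residuals from the group means, which leave out the difference between groups, probe 2 ran at r = -0.066, -0.28 and -0.39 against probes 1, 3 and 4, while probes 1, 3 and 4 gave 0.90 to 0.97 among themselves. These are descriptions over 8 arrays that all probes share. Which part of the transcript each probe covers was not analysed here.

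**Figure D2:**
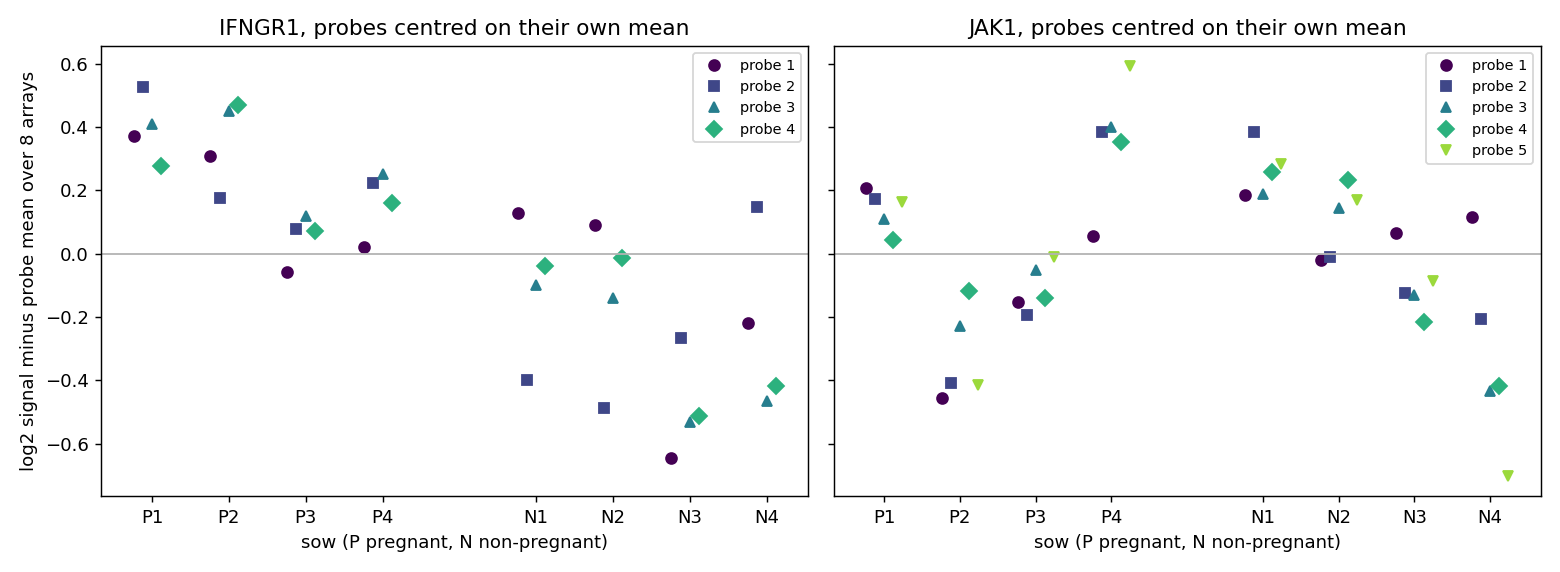
Log2 signal of each probe minus its own mean over the 8 arrays (y axis) in each sow (x axis; P pregnant, N non-pregnant), for the 4 probes of IFNGR1 and the 5 probes of JAK1. IFNGR1 probe 2 departs from the other probes in the non-pregnant sows, and JAK1 probe 1 departs from probes 3, 4 and 5 in pregnant sow 4 and non-pregnant sow 4.

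IFNAR1, a chain of the type I interferon receptor, averaged higher in pregnant sows at both probes, by different amounts. Probe 1 stood at 2.27, 1.32, 1.74 and 1.67 in pregnant replicates 1 to 4, against 1.58, 1.01, 1.16 and 1.25 in non-pregnant replicates 1 to 4. Pregnant replicate 1 was the highest of all, and pregnant replicate 2 lay within the non-pregnant range, below non-pregnant replicate 1. The log2 fold change was 0.50 with a limma SE of 0.27 (1.41-fold; 0.32 without pregnant replicate 1), and the group means were 1.75 ± 0.40 in pregnant and 1.25 ± 0.24 in non-pregnant sows (SD, n = 4 each).

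Probe 2 of IFNAR1 stood at 1.32, 0.57, 0.74 and 0.58 in pregnant sows, against 0.82, -0.13, 0.47 and 1.12 in non-pregnant sows. Its log2 fold change was 0.23 with an SE of 0.32, and only pregnant replicate 1 lay above all non-pregnant sows (1 of 4). The main gap between the probes was in non-pregnant replicate 4, which was the second highest sow at probe 2 and lay below all 4 pregnant sows at probe 1. The probes correlated at r = 0.71 over the 8 arrays (rho = 0.69). Probe 2 had a log2 fold change of -0.0022 once non-pregnant replicate 2 was left out.

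IL10RB, the receptor chain shared by IL-10 and the type III interferons, had a single probe and varied widely between sows. It stood at 1.48, 0.82, 0.48 and 0.66 in pregnant sows, against 1.03, 0.073, -0.26 and 0.78 in non-pregnant sows. Only pregnant replicate 1 exceeded all non-pregnant sows (1 of 4), and only non-pregnant replicates 2 and 3 lay below all pregnant sows. The group means were 0.86 ± 0.44 in pregnant and 0.41 ± 0.60 in non-pregnant sows (SD, n = 4 each). The log2 fold change of 0.46 had an SE of 0.35 and was 0.23 without non-pregnant replicate 3 and 0.66 without non-pregnant replicate 1.

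JAK1, the kinase used by all of these receptors, did not keep a direction across its 5 probes. Log2 fold changes were -0.17, -0.023, 0.11, 0.071 and 0.17 for probes 1 to 5, with SEs of 0.24 to 0.31, and their mean was 0.031 (1.02-fold). Probe 1 stood at 6.03, 5.37, 5.67 and 5.88 in pregnant sows, against 6.01, 5.80, 5.89 and 5.94 in non-pregnant sows. The non-pregnant sows were close together at this probe (SD 0.087) and the pregnant sows were not (SD 0.29), with pregnant replicate 2 lowest.

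Probe 5 of JAK1 gave another picture of the same sows. It stood at 2.67, 2.10, 2.50 and 3.10 in pregnant sows, against 2.79, 2.68, 2.42 and 1.81 in non-pregnant sows. Non-pregnant replicate 4 was lowest of all here but was the second highest non-pregnant sow at probe 1. Probes 3, 4 and 5 gave r between 0.91 and 0.99 among themselves (rho between 0.93 and 1), and probe 1 gave r with probes 3, 4 and 5 between 0.20 and 0.35 (rho between 0.071 and 0.19). Probe 1 had a log2 fold change of -0.050 once pregnant replicate 2 was left out. Leaving out non-pregnant replicate 4 gave -0.011, -0.057 and -0.040 at probes 3, 4 and 5, opposite in sign to all 8 sows. With normexp background correction, whose fit differed strongly between arrays, all 5 probes of JAK1 were positive, between 0.69 and 0.91.

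IFNG, the ligand of the IFNGR1 and IFNGR2 receptor, was dim but detected in every sow. Its spot signal was 51.4, 37.8, 43.8 and 36.8 in pregnant sows, against 43.4, 74.8, 23.2 and 36.6 in non-pregnant sows, before scaling. On the scaled log2 level it stood at -2.52, -1.91, -2.40 and -2.60 in pregnant sows, against -2.41, -1.74, -3.20 and -2.26 in non-pregnant sows. The non-pregnant sows held both the highest value (replicate 2) and the lowest (replicate 3). The means were -2.36 ± 0.31 in pregnant and -2.40 ± 0.61 in non-pregnant sows (SD, n = 4 each), and the log2 fold change of 0.043 had an SE of 0.33 and turned to -0.63 with normexp background correction.

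The slide was a second way in which the arrays differed, and each slide held both groups. Within slide 1 and within slide 2 the log2 fold changes of the 4 IFNGR1 probes were 0.42 and 0.23, 0.63 and 0.37, 0.58 and 0.65, and 0.45 and 0.53, in the order of the probes. Those of the 2 IFNAR1 probes were 0.64 and 0.36, and 0.38 and 0.081, and that of IL10RB was 0.60 and 0.32. These 7 probes of the receptor chains were positive on both slides. Nothing is read from that shared sign, since the average over the slides was known when the genes were chosen. JAK1 probe 1 was negative on both, at -0.098 and -0.25, and its other probes were between -0.14 and -0.0011 on slide 1 and between 0.095 and 0.35 on slide 2. IFNG was 0.34 on slide 1 and -0.26 on slide 2.

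The gap between those within-slide values and the level of the slides were then tested across all probes. With 2 arrays of each group on each slide, neither estimate depends on the average difference between groups that was used to choose the genes. For the difference between slides in the pregnancy effect, limma called 0 of 13 member probes (adjusted p = 0.9997 for each), where 0% of all 26476 probes were called (1478 with an unadjusted p below 0.05). The widest gap was that of IFNG, at -0.60 with an SE of 0.65. In a check with changes of known size put into the values, this fit recovered 0% of those of 2-fold, 4-fold and 8-fold. Its 0 calls therefore cannot show that the pregnancy effect was alike on both slides. For the level on slide 2 minus that on slide 1, limma likewise called 0 of 13 (adjusted p = 0.999 for each), where 0% of all probes were called (737 with an unadjusted p below 0.05). IFNG again had the widest gap, 0.51 with an SE of 0.31, at -2.13 on slide 2 and -2.63 on slide 1. For the level of the slides the same check recovered 2.99% of changes of 2-fold and 44.8% of those of 4-fold.

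**Figure D3:**
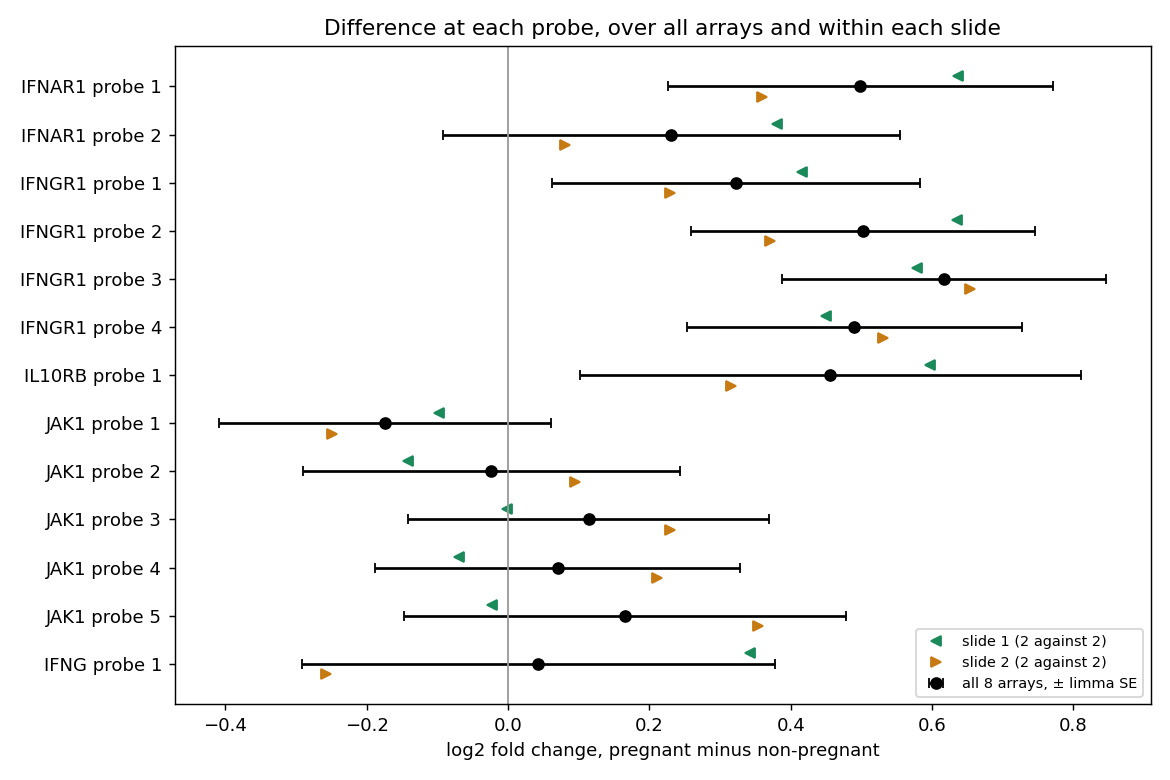
Log2 fold change of each member probe, pregnant minus non-pregnant (x axis), over all 8 arrays (black points, bars are ± the limma SE) and within slide 1 and slide 2 (triangles, 2 against 2 arrays). The 7 probes of IFNAR1, IFNGR1 and IL10RB are positive on both slides, and those of JAK1 and IFNG lie around 0. The genes were chosen with the average over the slides known.

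Markers of blood cell types were set beside the members. All 9 measured monocyte and macrophage markers had a positive log2 fold change (median 0.40, none called by limma, 0 of 9), among them lysozyme LYZ and the scavenger receptor CD163 at 0.65 each and the endotoxin co-receptor CD14 at 0.47. Their mean log2 level ran from 2.12 to 2.43 in pregnant and from 1.63 to 2.04 in non-pregnant sows, and their summed level, in multiples of the 75th percentile signal, from 79.7 to 97.9 in pregnant and from 55.2 to 74.7 in non-pregnant sows. None of these markers was at background.

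Pregnant replicate 1 had the highest monocyte and macrophage mean and, at the brightest probe, the highest level of all 3 receptor chains. It was also the highest at JAK1 probe 1, which correlated with the mean marker level at r = -0.158. At IFNGR1 probes 3 and 4 pregnant replicate 2 was the highest. Non-pregnant replicate 3 had the lowest mean and, at the brightest probe, the lowest IFNGR1, IL10RB and IFNG. IFNAR1 probe 1 correlated with the mean marker level at Pearson r = 0.774 (exact permutation p = 0.0257, adjusted p = 0.266) and Spearman rho = 0.857 (exact permutation p = 0.0107, adjusted p = 0.321), two-sided over 8 sows. IL10RB gave r = 0.750 (exact p = 0.0324, adjusted p = 0.266) and rho = 0.595 (exact p = 0.132, adjusted p = 0.661). IFNGR1 probe 1 gave r = 0.745 (exact p = 0.0365, adjusted p = 0.266) and rho = 0.524 (exact p = 0.197, adjusted p = 0.737). None of these passed over the 30 pairs of member and marker list, and the pooled values hold the group difference on which the genes were chosen.

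Leaving out the 2 sows at the ends of the marker range lowered these values, which also narrows that range. Without the 2 sows farthest from the median marker level, pregnant replicate 1 and non-pregnant replicate 3, r was 0.641 for IFNAR1, 0.0581 for IL10RB and -0.0415 for IFNGR1 over the 6 sows left, so that the values for IL10RB and IFNGR1 rested on that pair of sows. Leaving out 1 sow at a time gave r from 0.650 to 0.827 for IFNAR1 and from 0.518 to 0.889 for IL10RB. For IFNGR1 r then ran from 0.383 to 0.861. On residuals from the group means r was 0.549 for IFNAR1, 0.721 for IL10RB and 0.623 for IFNGR1 (approximate permutation adjusted p = 0.439, 0.197 and 0.349). Residual r was higher with lymphocyte lists for IFNAR1 and IFNGR1, but not for IL10RB. It was 0.766 for IFNAR1 with the T cell markers (approximate permutation adjusted p = 0.197). For IFNGR1 it was 0.754 with the B cell and 0.880 with the cytotoxic markers (approximate permutation adjusted p = 0.197 and 0.0658). Each slide held only 4 sows, too few for a value of its own. The part of monocyte numbers in the levels of the receptor chains was not tested.

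Markers of T cells and of cytotoxic cells ran the other way. All 8 T cell markers had a negative log2 fold change (median -0.35), with a mean level of 1.35 to 1.97 in pregnant and 1.88 to 2.16 in non-pregnant sows, and a summed level of 41.0 to 57.8 in pregnant and 53.9 to 65.3 in non-pregnant sows. All 9 markers of cytotoxic lymphocytes and NK cells were negative as well (median -0.53), with a mean level of 0.73 to 1.19 in pregnant and 1.01 to 1.64 in non-pregnant sows, and a summed level of 69.4 to 124.8 in pregnant and 95.6 to 189.4 in non-pregnant sows. Limma called none in either list (0 of 8 and 0 of 9).

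JAK1 and IFNG were set against these and the other lists, and no relation passed the test. JAK1 probe 1 correlated with the T cell mean at r = 0.877 (exact permutation p = 0.0112, adjusted p = 0.266) and rho = 0.738 (exact p = 0.0458, adjusted p = 0.458). Without pregnant replicate 2 and non-pregnant replicate 1 r was 0.461, and without pregnant replicate 2 alone 0.577. On residuals from the group means over all 8 sows it was 0.882 (approximate permutation p = 0.00387, adjusted p = 0.0658). With the neutrophil markers JAK1 gave r = -0.724 (exact p = 0.0444, adjusted p = 0.266) and rho = -0.524 (exact p = 0.197, adjusted p = 0.737), and r = 0.0254 without the same 2 sows, so that this relation rested on them. The 9 neutrophil markers were divided in direction, 6 with a positive and 3 with a negative log2 fold change, from -1.09 to 0.98. IFNG and the cytotoxic list gave r = 0.568 (exact p = 0.138, adjusted p = 0.591) and rho = 0.619 (exact p = 0.115, adjusted p = 0.661). On residuals from the group means r was 0.849 (approximate permutation p = 0.0067, adjusted p = 0.0670), and without the 2 sows farthest from the median, non-pregnant replicates 1 and 2, the pooled r was 0.464. With the neutrophil markers, whose mean level ran from 1.09 to 2.13 in pregnant and from 0.94 to 1.75 in non-pregnant sows, IFNG gave r = 0.611 (exact p = 0.109, adjusted p = 0.543) and rho = 0.762 (exact p = 0.0368, adjusted p = 0.458). That r was 0.621 without pregnant replicate 2 and non-pregnant replicate 1, and 0.616 on residuals (approximate permutation adjusted p = 0.349). IFNGR1 and the cytotoxic list gave a pooled r of 0.155 and a residual r of 0.880 (approximate permutation p = 0.00439, adjusted p = 0.0658). The p-values on residuals can be too small, since residuals were exchanged between groups. Over all 30 pairs, 5 Pearson and 3 Spearman values had an exact permutation p under 0.05 and 0 passed after adjustment. Only the brightest probe of each gene was set against the lists, and at JAK1 it correlated with probes 3, 4 and 5 at r between 0.20 and 0.35. The part of T cell, cytotoxic cell and neutrophil numbers in these levels was not tested.

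**Figure D4:**
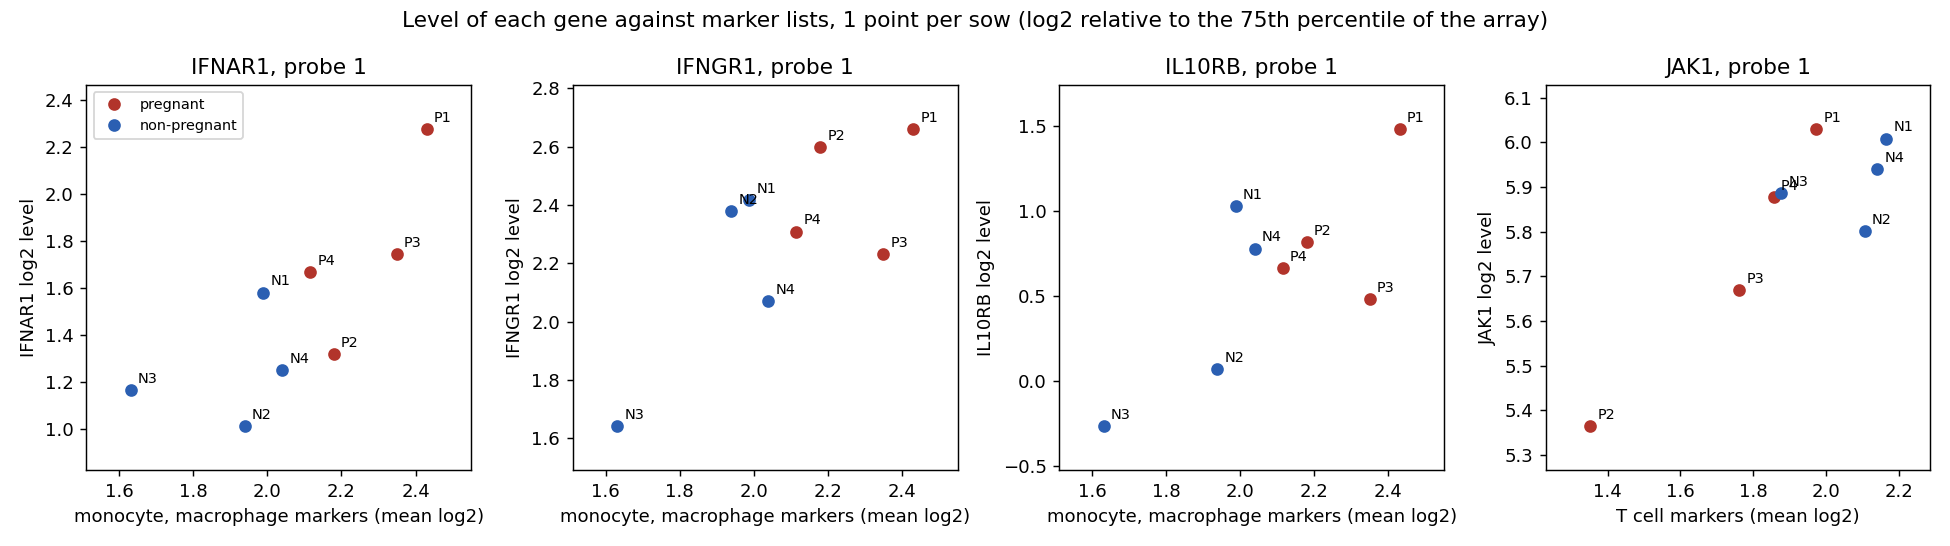
Log2 level of IFNAR1, IFNGR1 and IL10RB (probe 1) against the mean log2 level of 9 monocyte and macrophage markers, and of JAK1 (probe 1) against that of 8 T cell markers, 1 point for each sow (P pregnant in red, N non-pregnant in blue). Non-pregnant sow 3 is lowest and pregnant sow 1 highest on the monocyte and macrophage axis, and pregnant sow 2 stands alone at the low end of the JAK1 panel.

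The receptor chains also followed each other in part. Over 8 sows IL10RB correlated with IFNAR1 at r = 0.75 (rho = 0.60) and with IFNGR1 at r = 0.76 (rho = 0.76), and IFNAR1 with IFNGR1 at r = 0.50 (rho = 0.43). JAK1 correlated with these chains at r between -0.20 and 0.31, and with IFNG at -0.46. Without pregnant replicate 2, JAK1 gave r = 0.59 with IL10RB, 0.29 with IFNAR1, 0.26 with IFNGR1 and -0.20 with IFNG. The JAK1 values are those of probe 1, which correlated with JAK1 probes 3, 4 and 5 at r between 0.20 and 0.35. IFNG correlated with IFNGR1, a chain of its own receptor, at r = 0.64 but rho = 0.26. These pairs are descriptions at the brightest probe of each gene, on arrays that all genes share. They are pooled over both groups, so the values among the receptor chains hold the group difference on which the genes were chosen.

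Among 1816 other genes with a symbol, the one most like IFNAR1 over the 8 arrays was OASL, a member of the oligoadenylate synthetase family induced by interferon (r = 0.96, rho = 0.98), followed by MUC19 (0.88) and TBXAS1, the thromboxane synthase (0.86). IFNGR1 was most like TLR4, the endotoxin receptor of monocytes (r = 0.89, rho = 0.83), AHCY (0.85) and LEPROT (0.84). IL10RB was most like DDIT3, a transcription factor of the stress response (r = 0.94, rho = 1), MSMB (0.93) and HMGB2 (0.92). JAK1 was most like SOCS5 of the cytokine signalling suppressor family (r = 0.96, rho = 0.90), USP7 (0.96) and IMPA1 (0.95). Without pregnant replicate 2 these 3 values for JAK1 were 0.87, 0.84 and 0.85. They belong to JAK1 probe 1, which correlated with JAK1 probes 3, 4 and 5 only at r between 0.20 and 0.35. IFNG was most like ZFP57 (r = 0.91, rho = 0.74), SIRT4 (0.89) and AHCY (0.81). With 8 arrays and 1816 genes, values this high are picked from many. They are also pooled over both groups, and so hold the group difference on which the members were chosen. The genes named as most like the receptor chains all averaged higher in pregnant sows, with log2 fold changes from 0.081 (LEPROT) to 0.67 (OASL). TLR4 also belongs to the monocyte and macrophage markers.

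The remaining ligands gave no common direction. Besides IFNG, 2 of the 14 listed ligands were kept: IFN-DELTA-1, of the interferon delta family, at -2.83, -2.06, -1.91 and -0.79 in pregnant and -1.94, -2.73, -1.66 and -2.71 in non-pregnant sows, and IL10, the ligand whose receptor contains IL10RB. The sow with the highest IFN-DELTA-1 and the sow with the lowest were both pregnant, and the log2 fold change was 0.37. That average covers opposite signs, -0.56 on slide 1 and 1.30 on slide 2, a gap of 1.86 with an SE of 0.74 (limma adjusted p = 0.893). IL10 had a log2 fold change of -0.084, and its second probe one of -0.065. Of the type I interferons, IFNB1 and IFNE were not well above background on any array, and IFNA1 was on 2 pregnant and 3 non-pregnant arrays.

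Among the receptors, 4 of the 10 listed were measured and all 4 had a positive log2 fold change, 3 of them members. IFNGR2, the signalling partner of IFNGR1, stood at 3.92, 2.96, 2.94 and 3.00 in pregnant sows, against 3.48, 2.00, 2.92 and 3.97 in non-pregnant sows. Its groups overlapped fully and its log2 fold change was 0.11, so that the partner chains IFNGR1 and IFNGR2 differed between groups by unequal amounts at the probes used. Whether those 2 differences differ was not tested. Within slides IFNGR2 was at 0.22 on slide 1 and -0.0049 on slide 2.

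Of the 4 Janus kinases, 3 were measured. JAK2, which pairs with JAK1 at the interferon gamma receptor, had a log2 fold change of 0.041 and TYK2, which pairs with it at the type I receptor, one of 0.048. The second probe of JAK2 gave 0.014. With limma 0 of the 3 ligands, 0 of the 4 receptors and 0 of the 3 kinases were called in either direction, where 0% of all probes were.

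Genes that curb or follow the pathway were given the same treatment. Of 14 listed negative regulators 4 were measured, 3 with a positive log2 fold change (median 0.098). USP18, which binds the type I receptor and dampens it, had the widest difference, at 3.20, 2.57, 3.02 and 2.86 in pregnant and 2.20, 0.77, 1.79 and 3.15 in non-pregnant sows (log2 fold change 0.94). Non-pregnant replicate 4 lay inside the pregnant range and the other non-pregnant sows below it. The second USP18 probe, at -2.58, -1.95, -2.31 and -2.34 in pregnant and -3.13, -3.18, -3.62 and -2.97 in non-pregnant sows, gave 0.93, and there the groups did not overlap. This probe was far dimmer than the first. Groups parted with the pregnant group higher at 0.925% of all probes, and nothing is read from this, since USP18 was named for its large difference. The feedback inhibitors SOCS2 and SOCS3 were both at 0.10, although a second SOCS2 probe gave -0.40.

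Genes that induce or answer interferon gamma were divided in direction. Of 19 listed inducers 7 were measured, 4 positive and 3 negative (median 0.034), with the cytokine IL15 at 0.42, the shared receptor chain IL2RG at 0.17 and the IL-18 receptor chain IL18R1 at -0.10. Of 18 listed response genes 12 were measured, 6 positive and 6 negative (median 0.0032), with the nitric oxide synthase NOS2 at -0.48, the guanylate-binding protein GBP2 at -0.26 and the adhesion molecule ICAM1 at 0.21. Of 10 listed receptors of other cytokines that use JAK1, 5 were measured, 3 positive and 2 negative (median 0.074), with IL4R at 0.68, IL13RA1 at 0.27 and IL7R at -0.18. Limma called 0 genes in each of these lists.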

How the data were processed

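Per the file headers, the authors deposited 1 scanner file per array from Agilent Feature Extraction 10.7.3.1 (10.7 per the submitters' processing notes). Its processed spot intensity is background-subtracted and detrended per the file headers and not normalized between arrays. A table of log2 values deposited by the authors was used as an alternative, and no source names its normalization. Its 8 columns share the quartiles 2.19, 5.03 (the median) and 7.76, as quantile normalization makes them, and correlated at 0.99895 or more with log2 of their own array's signal, so direction and log2 scale follow the signal.

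Outlier spots were left out, spots of a probe averaged on the log2 scale, and each array's 75th percentile subtracted. Of 43603 probes, 215 with all spots marked on some array were dropped, and 26476 well above background on all arrays of a group were kept. Of 5779 probes with a RefSeq accession, 5461 matched a symbol of the Sscrofa11.1 table, and 1817 genes had a kept probe; the brightest stood for the gene. Groups, slides and their interaction were tested with limma 3.58.1 in R 4.3.3 (Benjamini-Hochberg, threshold 0.05). Correlations used exact permutation (Python 3.11.15). Residuals from the group means were exchanged between groups although they sum to 0 within each, so their p-values are approximate and can be too small. Files give no separate culture or batch beyond the slide, and each sow has 1 array. The members, the gene lists, matched by exact symbol, and the tests were chosen with earlier results of these data known. Named genes are all members, all measured ligands, receptors and kinases, the 3 of largest absolute change in each other pathway list, and the 3 most correlated with each member; LYZ, CD163, CD14 and the ligands not kept were named after their values were seen. Alternatives were quantile and median scaling, normexp (on median signals, since the files hold no mean signal), other filters, blocks, single slides, weights and each array left out. The number of arrays limits the precision.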

Additional observations from a re-analysis of the deposited data

Results flagged for a closer look

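In groups of 4 sows, a value was picked out when its gap to the nearest sow, as a share of the group's range, was above Dixon's 95% critical value. Chance picks about 1 in 20 groups, and 5 of 72 groups were picked. None of the 5 was a member gene.

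IFNGR2, the partner chain of IFNGR1, was at 3.92 in pregnant replicate 1, with the other pregnant sows between 2.94 and 3.00. IL10 was at -0.94 in pregnant replicate 2, with the other pregnant sows between -0.26 and -0.17. The receptor chain IL2RG was at 0.12 in non-pregnant replicate 4, with the other non-pregnant sows between -0.21 and -0.18. The mean of the B cell markers was 0.20 in pregnant replicate 1, with the other pregnant sows between -0.25 and -0.19. The mean of the platelet markers was 3.62 in non-pregnant replicate 1, with the other non-pregnant sows between 2.84 and 2.85.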

How the results depend on the processing

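With every alternative run, limma called 0 probes between pregnant and non-pregnant sows, and 0 for the level of the slides. For the difference between slides in the pregnancy effect, leaving out arrays gave 0 to 2 calls, the 2 without non-pregnant replicate 2, and the cause was not tested. The count of called pairs of member and marker list stayed at 0 in every alternative run. The 4 IFNGR1 probes, IL10RB and IFNAR1 probe 1 kept a positive log2 fold change in every alternative run. Normexp gave 0.78 for IFNGR1 probe 1 (0.12 to 0.99 over its 4 probes), 0.69 for JAK1 probe 1 and -0.63 for IFNG, with a median over all probes of -0.20 in place of -0.040. Its fitted background means ran from -811 to -2.8 between arrays. Plain background subtraction with the same offset of 50, chosen after seeing the data, moved none of the 13 probes by more than its SD. The sign of JAK1 probe 1 turned also with the mean of its probes (0.031), and that of IFNG with array weights (-0.12), on slide 2 alone (-0.26), and without pregnant replicate 2 (-0.11) or non-pregnant replicate 3 (-0.22).

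Same-numbered sows deviated together at r = 0.22, 0.48, 0.43 and -0.12 for replicates 1 to 4. One value was negative and no label ties the numbers to the half-sib pairs, so they were not used as pairs, and whether they mark those pairs is not known. With the replicate number as a block limma called 0 probes, as without it, and the log2 fold changes were the same by construction.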

Other observations

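One non-pregnant sow was low in much of the pathway. Of the 22 genes described from the interferon lists at their brightest probe, members included, non-pregnant replicate 2 was the lowest of the 8 arrays in 11: IFNAR1, IFNGR2, JAK2, TYK2, SOCS3, USP18, IL15, IL18R1, IL2RG, GBP2 and IL13RA1. It was the lowest in 8.59% of all 1817 genes, which were not picked on the difference between groups, as part of the 22 were. It was also the highest of the 8 in IFNG (-1.74). Non-pregnant replicate 3 was the lowest in IFNGR1, IL10RB and IFNG, and in 16.9% of all genes. GBP2 was at 5.21 in non-pregnant replicate 1 and between 2.72 and 3.75 in the other 7 sows. These are values of single sows, noticed after the data were seen, and they were not tested.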
